A study of Danio rerio with 16 samples.

Results

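A set of 75 genes was described here whose RNA was abundant in the ovaries of some adult zebrafish and near zero in the ovaries of others. The members were chosen by their values in 8 ovaries: a median of at least 100 normalized counts together with a second-lowest ovary of at most 20. Normalized counts are reads per gene divided by a factor for the size of each library. The limits were met by 76 of 28353 genes with normalized values, and by 0.917% of the 8284 genes whose ovary median was at least 100. The rule set aside orc1 and nasp, of which only orc1 met the limits, so that 75 members remained, fewer than the 150 that the rule allowed for. They were ranked by (highest + 1)/(second-lowest + 1). Since the ovary values chose the members, their ovary levels are a description. The fits over all genes used the same ovaries, so counts of called members are given beside the share of all genes and are no test of the members. The 8 testes, which the rule did not use, gave a separate reading.

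The gonads came from AB strain zebrafish, 4 months of age, kept for 32 days in water with exemestane (EM) or in control water. EM was at 50, 100 or 200 μg/L. The fish labelled control were taken as the solvent control and are given here as 0 μg/L. EM is a steroidal inhibitor of aromatase, the enzyme that makes estrogens from androgens, and was dissolved in dimethyl sulfoxide. RNA was sequenced from 2 females and 2 males at each concentration, 1 fish per library, so that there were 6 EM-females, 2 control females, 6 EM-males and 2 control males. Each concentration was 1 tank of 3 females and 3 males, so tank and concentration cannot be told apart. An ovary is a mixture of oocytes at several stages with follicle cells, blood and connective tissue, and most of its polyadenylated RNA is that which oocytes store for the early embryo. In such bulk samples, fewer cells of a type and less RNA per cell cannot be told apart.

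The ovary libraries held 8311132 to 13821205 counts on genes, and the testis libraries 4043394 to 9674058. The tissue labels were borne out by marker genes: the oocyte gene GDF9 lay between 497 and 740.3 normalized counts in the ovaries and between 4.26 and 34.6 in the testes, and the Leydig cell hormone gene insl3 reached at most 3.16 in the ovaries, against at least 2036 in the testes. Liver genes stood apart in a single ovary. The summed level of 21 liver genes was 62.4 to 607 in the EM-females, against 5162 and 125 in the control females. None of the 75 members is among these 21 genes, nor in any of the other 12 lists examined, which held oocyte, egg coat, DNA replication, histone, piRNA, antigen presentation, innate immune, zinc finger, follicle cell, testis, red blood cell and leukocyte genes. The liver, red blood cell and leukocyte lists had no gene with an ovary median of at least 100, so none of their genes could be a member. The other lists had 1 to 87 such genes each, beside a share of members of 0.917%, so few or none would be members. The DNA replication gene orc1 met the limits but was set aside by the rule, so it could not count as a member of a list. For the whole list of 17 oocyte genes the sum was 54146 to 64029 in EM-females, against 61849 and 70375 in control females.

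These lists could not tell whether the members share a function, which was not tested. Among those with well known products were genes of cell division (knl1, ska3, hmmr, haspin), of mitochondria (cox17, mrps31, DDX28, ME2), of ribosomes and translation (RIOK2, eif1axb), of sugar metabolism (PFKM, RPIA) and of the cell surface (plxnb2a.2, tspan36, CHRNB3, ENPEP). Symbols are spelled as in the table that pairs them with Ensembl identifiers, in which 74 of the 75 members had one.

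The ratio that ranked the members was 975.4 for the first, 8.05 for the last and 52.3 at the median. Of the 600 ovary values of the 75 members, 187 were low (at most 20), 375 were at least 100, and 38 lay between, in 32 of the members. A low ovary was not always an ovary without the RNA: 20 normalized counts corresponded to 23.5 to 37.8 reads, and only 8 members were at 0 in any ovary. The number of low ovaries was 2 for 46 members, 3 for 21 members and 4 for 8 members. Among the ovaries that were not low, the highest value was 3.33 times the lowest at the median of the members, under 1.5 times in 4 members and over 5 times in 24. Just inside the limits were the carboxypeptidase gene CPM and wdr76, with a second-lowest ovary of 19.95 and 19.5 normalized counts. Just outside were si:dkeyp-98a7.3 and ENSDARG00000117298, at 20.4 and 20.7. On the median, si:dkey-226l10.6 and PRIMPOL were just inside at 101.8 each, and AKR1A1 and rusf1 just outside at 98.2 each.

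**Figure D1:**
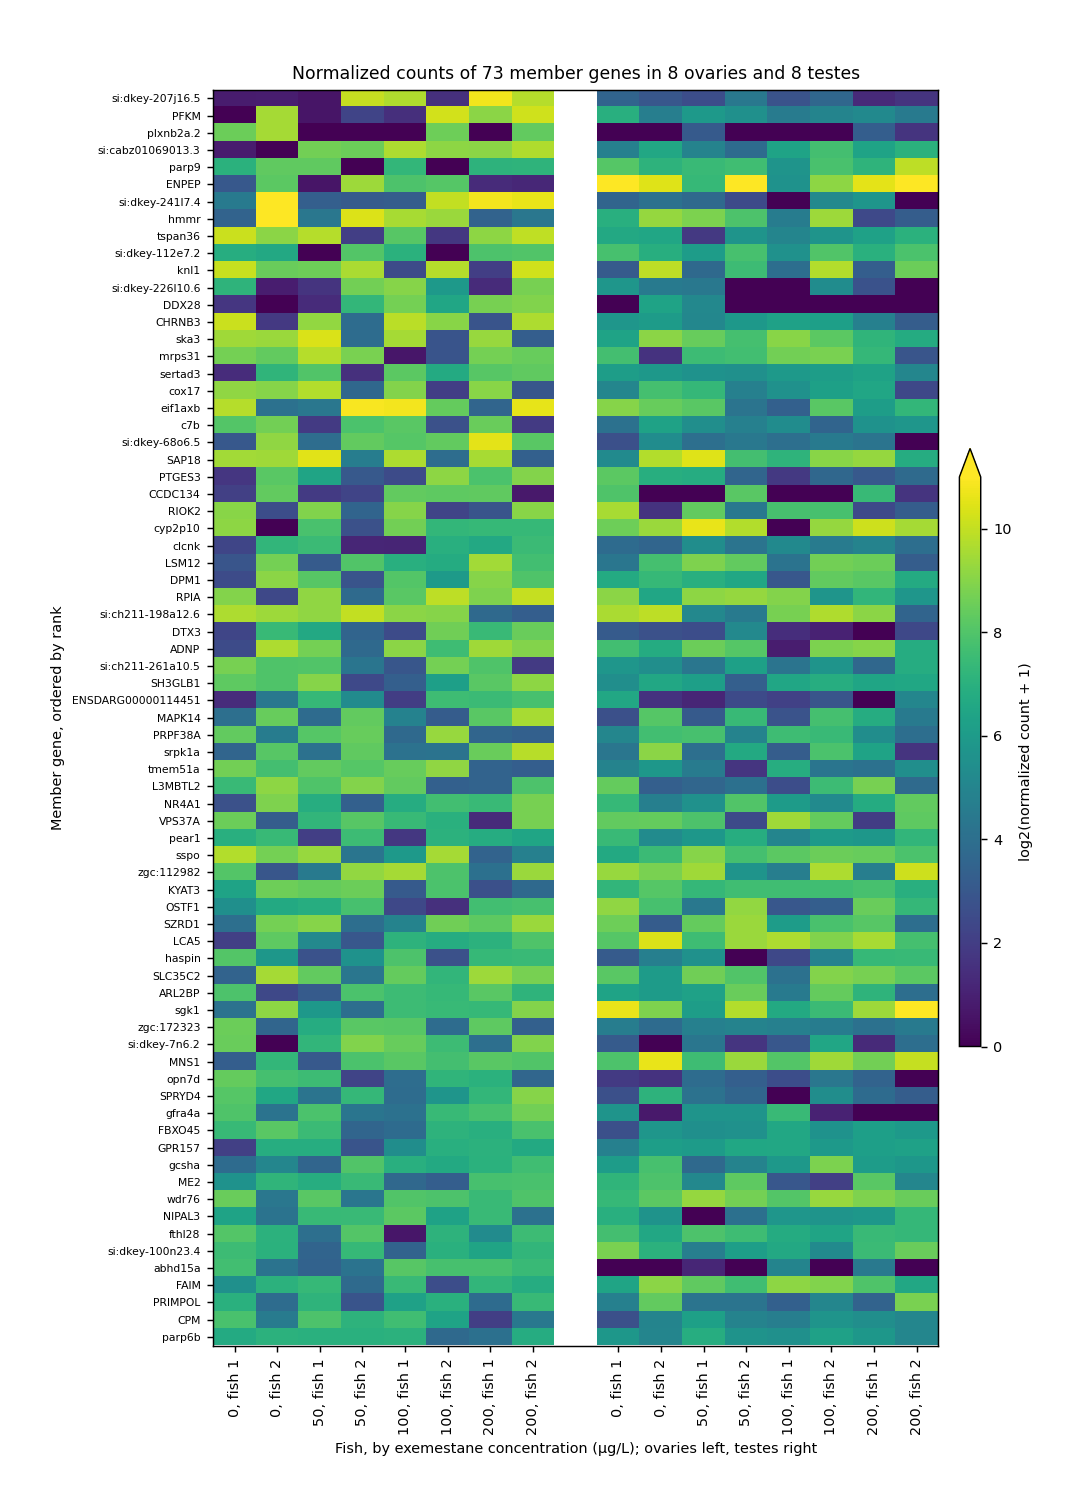
Colour shows log2(normalized count + 1) for 73 of the 75 members (down the page, by rank) in 8 ovaries (left) and 8 testes (right), with fish in order of EM concentration in μg/L and values above the top of the scale sharing its last colour. Dark cells, the low fish, are scattered over all 4 concentrations in the ovaries, and many members are also dark in some testes.

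The first question was whether the low ovaries followed the EM concentration. As a description, an ovary low for a member usually had a tank mate that was not. The 2 ovaries of a concentration were split, with 1 low and 1 not, in 147 of the 300 pairs of ovaries formed by 75 members and 4 concentrations. The rule leaves 2 to 4 low ovaries per member, so many split pairs would arise under random placement too. The count was not tested against random placement, so it does not by itself answer the question. At least 1 concentration was split in 67 members, at least 2 in 62, at least 3 in 17 and all 4 in 1 member.

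Low members were present in every ovary. There were 26 and 20 in the control females, 26 and 34 at 50, 25 and 20 at 100, and 20 and 16 at 200 μg/L, in replicates 1 and 2. As a share of all values, 30.7% were low at 0, 40% at 50, 30% at 100 and 24% at 200 μg/L. The share was highest at the lowest EM concentration and lowest at the highest, with the control females between them, so that it had no single direction. Both ovaries were low for 3 members at 0, 5 at 50, 5 at 100 and 7 at 200 μg/L. Of the 75 members, 32 were low in no control female, 40 in 1 and 3 in both.

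**Figure D2:**
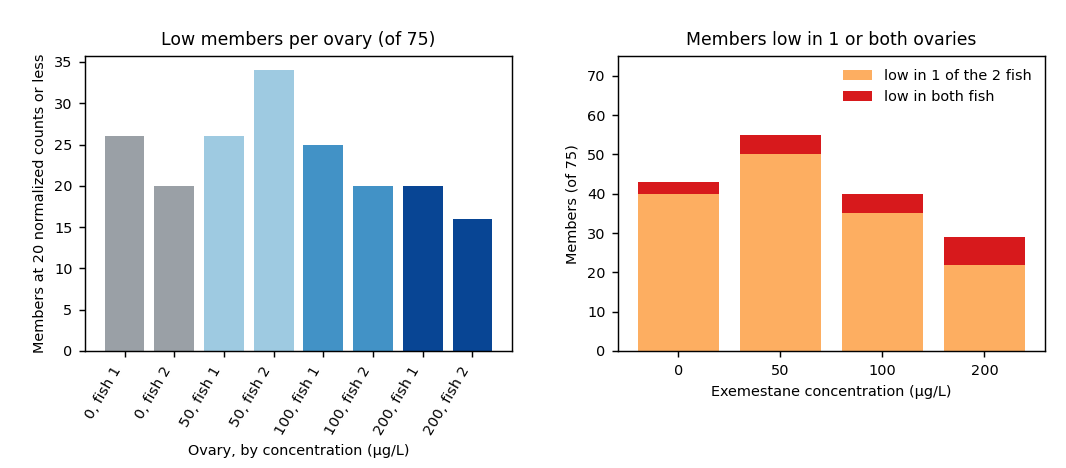
Bars on the left count the members at 20 normalized counts or less in each of the 8 ovaries, with 2 fish per EM concentration (μg/L). Bars on the right count, of 75 members, those low in 1 (orange) or both (red) of the 2 ovaries of a concentration. In every concentration more members were low in 1 ovary than in both, from 40 against 3 at 0 μg/L to 22 against 7 at 200 μg/L.

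A total of 39 different sets of low ovaries occurred, and 21 of them belonged to a single member. The commonest was control female replicate 1 with 50 μg/L EM-female replicate 2, which was shared by 9 members (sertad3, DPM1, ADNP, NR4A1, SZRD1, LCA5, SLC35C2, sgk1 and GPR157, named after their values were seen). In 8 members the low ovaries were exactly both fish of 1 concentration. They included si:cabz01069013.3 at 0 μg/L, then mrps31, OSTF1 and ME2 at 100, and si:ch211-198a12.6, tmem51a and CPM at 200 μg/L.

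The member si:cabz01069013.3, a gene known by its clone, was the only one low in both control females and in no EM-female. si:cabz01069013.3 had 0.797 and 0 normalized counts at 0, 405 and 374 at 50, 812 and 556 at 100, and 543 and 825 at 200 μg/L in the ovaries. The EM-females averaged 586 ± 194 (SD, n = 6). The control females held 1 read of this gene in all, which gives a ratio of 1425 (95% exact Poisson interval 256 to 56280, for counting error only). It was also the only member called between EM-females and control females by edgeR's quasi-likelihood fit over all genes, on the same ovary values that chose it, and it was not called without control female replicate 2. In the testes the groups overlapped, at 13.4 to 207 in EM-males, against 26.7 and 97 in control males (log2 fold change 0.49, edgeR adjusted p 0.969).

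Over all genes, the comparison of EM-females with control females called 0.0126% of 15907 genes and 1 of the 75 members. At an unadjusted p under 0.05 there were 11.7% of all genes and 5.33% of the members. Since the members were picked for a large spread between ovaries, the counts are given as a description. DESeq2 called 1.56% of genes and 3 members, which were si:cabz01069013.3, si:dkey-207j16.5 and DDX28. All 3 had at most 3 reads in each control female, and si:dkey-207j16.5 and DDX28 had as few in at least 1 EM-female, so that in these 2 genes the groups overlapped. All EM-females lay above both control females in 1 member, si:cabz01069013.3, which is 1 of 75 beside 12.5% of the genes with an ovary median of at least 100. All EM-females lay below both in 1 member, the opsin gene opn7d, beside 6.93% of those genes. opn7d had 335 and 213 normalized counts at 0, 184 and 3.71 at 50, 14.4 and 145 at 100, and 131 and 11.3 at 200 μg/L.

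With concentration as a slope, edgeR called no member and 0.0% of 15907 genes. At an unadjusted p under 0.05 there were 3 members and 764 genes (4.8%). DESeq2 called 0.21% of genes and 2 members, both lower with concentration: si:ch211-198a12.6 and KYAT3, which codes for an enzyme of kynurenine metabolism. si:ch211-198a12.6 had 812 and 677 normalized counts at 0, 583 and 1006 at 50, 551 and 514 at 100, and 12.6 and 8.65 at 200 μg/L. KYAT3 had 82.9 and 383 normalized counts at 0, 335 and 368 at 50, 7.79 and 236 at 100, and 5.53 and 12.6 at 200 μg/L. The first was low in both ovaries at 200 μg/L alone, and KYAT3 also in replicate 1 at 100 μg/L.

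Members low in exactly both ovaries of 200 μg/L besides si:ch211-198a12.6 were tmem51a, which codes for a membrane protein, and CPM, which codes for a membrane-bound carboxypeptidase. tmem51a had 402 and 209.9 normalized counts at 0, 330.0 and 271 at 50, 351 and 573 at 100, and 10.3 and 8.65 at 200 μg/L. CPM had 229.5 and 22.9 normalized counts at 0, 241 and 137 at 50, 196 and 82.1 at 100, and 3.16 and 19.95 at 200 μg/L, with control female replicate 2 just above the limit. Neither was called in any fit by edgeR or DESeq2.

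Genes of cell division showed low ovaries at several concentrations. hmmr, whose product binds the microtubules of the spindle, had 10.4 and 3059 normalized counts at 0, 19.6 and 1370.5 at 50, 754 and 652 at 100, and 10.3 and 19.3 at 200 μg/L. knl1, a scaffold of the kinetochore, the structure that ties chromosomes to the spindle, had 1078 and 354 normalized counts at 0, 378 and 766 at 50, 4.79 and 868 at 100, and 3.16 and 1179 at 200 μg/L. ska3, whose product helps kinetochores hold microtubule ends, had 688 and 657 normalized counts at 0, 1319 and 13.6 at 50, 728 and 6.22 at 100, and 639.7 and 8.65 at 200 μg/L. The 3 genes were low in different ovaries: hmmr in 4 (control female replicate 1, 50 μg/L replicate 1 and both at 200 μg/L), knl1 in replicate 1 at 100 and at 200 μg/L, and ska3 in replicate 2 at 50, 100 and 200 μg/L.

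The mitochondrial genes cox17, mrps31 and DDX28 had different sets of low ovaries, while ME2, given below, was low in the same ovaries as mrps31. cox17, a copper chaperone for cytochrome c oxidase, had 581 and 509 normalized counts at 0, 849 and 11.8 at 50, 490.0 and 3.11 at 100, and 531 and 6.65 at 200 μg/L. mrps31, which codes for a protein of the small mitochondrial ribosomal subunit, had 413 and 329.7 normalized counts at 0, 876 and 446 at 50, 0.599 and 6.22 at 100, and 411 and 343 at 200 μg/L. The ovary with the highest value of both genes was 50 μg/L EM-female replicate 1, which was also the highest for ska3 and SAP18 (1319 and 1473). DDX28, an RNA helicase of mitochondrial ribosome assembly, had 2.39 and 0 normalized counts at 0, 1.59 and 154 at 50, 417 and 88.9 at 100, and 429.7 and 479 at 200 μg/L. For DDX28 both control females and 1 EM-female were near 0, while the 5 other EM-females lay between 88.9 and 479.

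Genes for translation and RNA handling differed in how far apart their ovaries lay. RIOK2, a kinase of small ribosomal subunit maturation, had 532 and 5.1 normalized counts at 0, 479.7 and 10.5 at 50, 518 and 3.73 at 100, and 6.32 and 528 at 200 μg/L. Its 4 low ovaries were thus between 3.73 and 10.5 and the 4 others between 479.7 and 532, with 1 of each kind at every concentration. eif1axb, a translation initiation factor, had 879 and 16.1 normalized counts at 0, 19.6 and 1889 at 50, 1811 and 341 at 100, and 11.1 and 1522 at 200 μg/L. SAP18, a partner of the Sin3 histone deacetylase complex, had 702 and 679.7 normalized counts at 0, 1473 and 24.1 at 50, 800.2 and 14.3 at 100, and 764 and 9.31 at 200 μg/L. LSM12, which codes for an RNA-binding protein, had 6.38 and 419.7 normalized counts at 0, 7.93 and 256 at 50, 123 and 107 at 100, and 714 and 204 at 200 μg/L. In eif1axb and LSM12 the ovaries that were not low spread widely, over 341 to 1889 and over 107 to 714.

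CCDC134, which codes for a coiled-coil protein, had the least variable level among its ovaries that were not low. CCDC134 had 3.19 and 328 normalized counts at 0, 2.64 and 3.71 at 50, 329 and 305 at 100, and 321 and 0.665 at 200 μg/L. The 4 high ovaries differed by at most 1.08 times and the 4 low ones were all under 4.

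The metabolic enzyme genes PFKM, cyp2p10 and ME2 had different sets of low ovaries. RPIA was low in the same ovaries as cyp2p10, control female replicate 2 and 50 μg/L EM-female replicate 2. PFKM, a phosphofructokinase that controls a committed step of glycolysis, had 0 and 742 normalized counts at 0, 0.529 and 3.71 at 50, 1.8 and 1220.3 at 100, and 543 and 1164 at 200 μg/L. cyp2p10, a cytochrome P450, had 563 and 0 normalized counts at 0, 229 and 5.57 at 50, 400.1 and 153 at 100, and 163 and 166 at 200 μg/L. ME2, the mitochondrial malic enzyme, had 47.8 and 148 normalized counts at 0, 116 and 176 at 50, 12 and 8.7 at 100, and 224 and 229 at 200 μg/L. PFKM was low in 4 ovaries, including 1 control female and both ovaries at 50 μg/L, and high at 200 μg/L.

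Genes of the cell surface and of immunity complete the first ranks. plxnb2a.2, a plexin, which is a receptor for semaphorins, had 367 and 735 normalized counts at 0, 0 and 0 at 50, 0 and 384 at 100, and 0 and 328 at 200 μg/L. ENPEP, an aminopeptidase that cleaves angiotensin, had 7.17 and 296 normalized counts at 0, 0.529 and 667 at 50, 244 and 272 at 100, and 1.58 and 1.33 at 200 μg/L. CHRNB3, a subunit of nicotinic acetylcholine receptors, had 1105 and 2.55 normalized counts at 0, 589 and 13.6 at 50, 931 and 527 at 100, and 6.32 and 793 at 200 μg/L. In plxnb2a.2 the 4 low ovaries held no read at all, and all 4 belonged to EM-females, including both at 50 μg/L. tspan36, a tetraspanin, had 1098 and 538 normalized counts at 0, 864 and 3.09 at 50, 285 and 2.49 at 100, and 559 and 994 at 200 μg/L. parp9, which belongs to the poly(ADP-ribose) polymerase family, had 128 and 317 normalized counts at 0, 315 and 0 at 50, 154 and 0 at 100, and 137 and 140.3 at 200 μg/L. c7b, a component of the complement attack complex, had 265 and 398 normalized counts at 0, 2.64 and 232 at 50, 289.9 and 5.6 at 100, and 358 and 2.66 at 200 μg/L. The low ovaries of tspan36 and parp9 were the same, replicate 2 at 50 and at 100 μg/L, and those of c7b were 50 μg/L replicate 1 and replicate 2 at 100 and at 200 μg/L.

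The remaining genes named by rank were si:dkey-207j16.5, sertad3 and PTGES3. si:dkey-207j16.5 had 0.797 and 0.85 normalized counts at 0, 0.529 and 1053 at 50, 837 and 1.87 at 100, and 1752 and 882 at 200 μg/L, the first by rank. sertad3, a SERTA domain protein, had 1.59 and 147 normalized counts at 0, 260.2 and 1.86 at 50, 301 and 104 at 100, and 280.4 and 318 at 200 μg/L. PTGES3, the p23 co-chaperone of Hsp90, had 2.39 and 293 normalized counts at 0, 85.2 and 7.43 at 50, 4.79 and 551 at 100, and 237 and 490.2 at 200 μg/L. Each had low ovaries at more than 1 concentration, and in each at least 1 control female was low.

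Some members belong to families with close copies (plxnb2a.2, eif1axb, cyp2p10, fthl28), so their counts are uncertain: reads placed equally well at more than 1 site are kept out of the gene counts.

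The 8 testes gave a reading that the rule had not used. Some members were split between fish there too. The same limits, a median of at least 100 and a second-lowest value of at most 20, were met in the testes by 9 of the 75 members (12%), against 17 of the 8209 other genes with an ovary median of at least 100 (0.207%). Taking members and others together, 0.314% of the 8284 genes met them. At least 2 testes at 20 or less and at least 2 at 100 or more were found in 19 members (25.3%), against 54 of the 8209 other genes (0.658%). Among genes with a testis median of at least 100, the limits were met by 9 of 31 members (29.0%) and by 162 of 9572 other genes (1.69%). No test was made of these shares. The 9 members included hmmr, mrps31, eif1axb, RIOK2, LSM12, VPS37A, OSTF1 and SZRD1 (VPS37A and SZRD1 were named after their values were seen). Over all 75 members the number low was 19 and 17 at 0, 21 and 21 at 50, 29 and 15 at 100, and 21 and 29 at 200 μg/L, in replicates 1 and 2.

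The low testes of these genes lay at different concentrations, but some fish were low for several of them. Of the genes named above, 200 μg/L EM-male replicate 2 was low for mrps31, RIOK2, hmmr, LSM12 and SZRD1. Control male replicate 2 was low for mrps31, RIOK2 and SZRD1. Among genes with an ovary median of at least 100, 554 were low in 200 μg/L EM-male replicate 2, against 397 to 522 in the other testes. mrps31 had 211 and 2.08 normalized counts at 0, 187 and 205 at 50, 399 and 447 at 100, and 157 and 6.39 at 200 μg/L in the testes. It was low in control male replicate 2 and 200 μg/L EM-male replicate 2, and in no other testis. RIOK2 had 765 and 2.08 normalized counts at 0, 324 and 20.1 at 50, 224 and 220.2 at 100, and 4.41 and 8.52 at 200 μg/L. hmmr had 120.3 and 615 normalized counts at 0, 454 and 243 at 50, 23.9 and 678 at 100, and 4.41 and 8.52 at 200 μg/L. The kinase gene had a low testis at 0 and both at 200 μg/L, and 1 at 50 μg/L just above 20, while hmmr had its 2 low testes at 200 μg/L and 1 at 100 μg/L just above 20. eif1axb had 516 and 349 normalized counts at 0, 289.9 and 17.8 at 50, 9.4 and 293 at 100, and 69.1 and 153 at 200 μg/L. LSM12 had 18.7 and 218 normalized counts at 0, 462 and 326 at 50, 17.1 and 408 at 100, and 371 and 8.52 at 200 μg/L. OSTF1 had 583 and 219 normalized counts at 0, 20.3 and 598 at 50, 6.83 and 8.68 at 100, and 354 and 158 at 200 μg/L. There were 2 low testes for eif1axb, 3 for LSM12 and 2 for OSTF1. All 3 genes were low in 100 μg/L EM-male replicate 1, while their other low testes differed.

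Other members were split in the testes without reaching the limits. CCDC134 had 251 and 0 normalized counts at 0, 0 and 292 at 50, 0 and 0 at 100, and 169 and 2.13 at 200 μg/L in the testes, where 3 fish were high and 5 low, 4 of the low ones with no read. knl1 had 8.02 and 965 normalized counts at 0, 12.7 and 183 at 50, 14.5 and 861 at 100, and 8.82 and 366 at 200 μg/L, being low in replicate 1 and high in replicate 2 of every concentration (chosen after its values were seen). DDX28 had 0 and 81.8 normalized counts at 0, 34.3 and 0 at 50, 0 and 0 at 100, and 0 and 0 at 200 μg/L, with no testis above 100. What the replicate number stands for is not given in the labels.

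Not all members were split in both sexes. The highest testis was under 100 in 20 members, all 8 testes were low in 2 members, and all 8 were above 20 in 22 members and at least 100 in 5. The testis median was above the ovary median in 17 members. plxnb2a.2 had 0 and 0 normalized counts at 0, 7.63 and 0 at 50, 0 and 0 at 100, and 8.82 and 2.13 at 200 μg/L, low in all testes. ENPEP had 6313 and 1401 normalized counts at 0, 167 and 4250.4 at 50, 47.8 and 553 at 100, and 1507 and 9331 at 200 μg/L, with its highest testis above every ovary.

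Between EM-males and control males edgeR called none of the 72 members that passed the filter on low counts and 0.00515% of 19417 genes. At an unadjusted p under 0.05 there were 2 members and 6.12% of all genes, and DESeq2 called 0.454% of genes and no member. With concentration as a slope in males, edgeR called no member and 0.0% of genes (unadjusted, 3 members and 2.97% of genes), and DESeq2 called 0.125% of genes and no member. All EM-males lay above both control males in 2 members, clcnk and sspo, beside 3.59% of the genes with an ovary median of at least 100. All EM-males lay below both in 3 members, among them eif1axb and PTGES3, beside 3.39%.

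Members that lie close to each other in the genome tended to be low in the same ovaries. Gene order was taken from RefSeq's annotation of another zebrafish assembly, GRCz12tu, in which 61 of the 75 members and 16460 measured genes in all were placed, the members on 20 chromosomes. In 11 pairs of members there were at most 10 genes between the 2, and these pairs joined 16 members into 7 runs. Over the 8 ovaries, Pearson's r of log2(normalized count + 1) had a median of 0.990 in these close pairs, and was over 0.9 in 10 of 11. The ovary values chose the members, so this is a description. For pairs further apart the median r over the ovaries was 0.791 with 11 to 50 genes between (15 pairs), 0.619 with 51 to 150 (26 pairs), 0.110 beyond that on 1 chromosome (45 pairs) and −0.017 between chromosomes (1733 pairs). As pairs share members and all pairs share the same 8 libraries, they are not independent.

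In the 8 testes the median r was 0.740 in the close pairs, and 10 of the 11 were positive. It was 0.043 with 11 to 50 genes between, −0.118 with 51 to 150, −0.030 beyond, and 0.008 between chromosomes. Among 2167 pairs of neighbouring genes with an ovary median of at least 100 and no member, the median r was 0.097 in the ovaries and 0.080 in the testes. Among 29 such pairs with at least 1 member it was 0.811 in the ovaries and 0.460 in the testes.

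**Figure D3:**
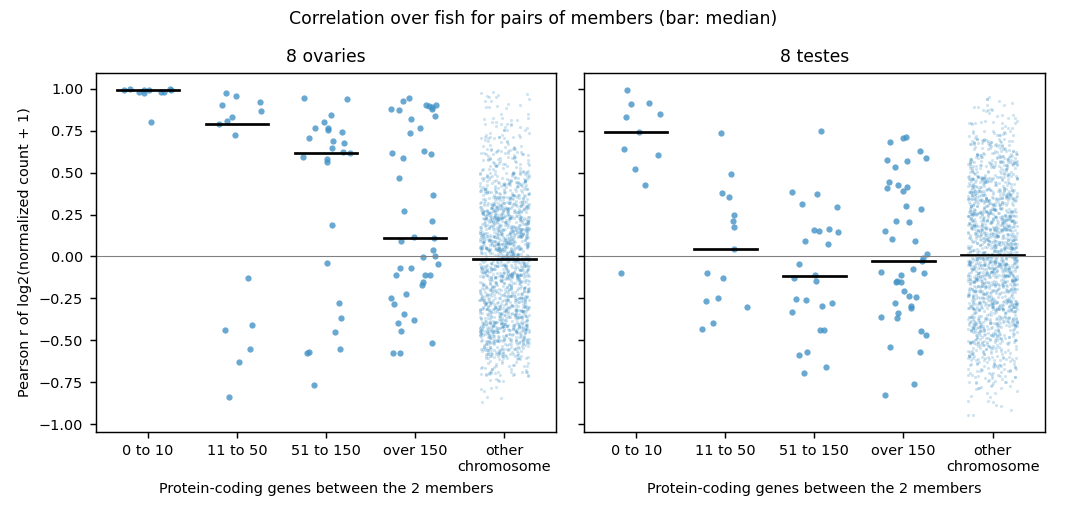
Each point is a pair of members, placed by the number of protein-coding genes between them (horizontal) and by Pearson's r of log2(normalized count + 1) over 8 ovaries (left) or 8 testes (right), with the median as a bar. Close pairs (11) are near 1 in the ovaries, with a median of 0.990, and mostly above 0.5 in the testes, with a median of 0.740, while pairs on different chromosomes spread around 0.

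The testis correlations of the 11 close pairs were tested one by one by exact permutation of the fish (two-sided, 8 fish, Benjamini-Hochberg adjusted over the 11 pairs). Pearson's r passed in 5 pairs and Spearman's rho in 3. The neighbours OSTF1 and ME2 had r = 0.914 (exact p = 0.00238, adjusted 0.0131) and rho = 0.881 (exact p = 0.00724, adjusted 0.0393), and r = 0.750 without 2 fish. The neighbours si:dkey-226l10.6 and eif1axb had r = 0.834 (exact p = 0.0131, adjusted 0.0425) and rho = 0.903 (exact p = 0.00536, adjusted 0.0393), and r = 0.680 without 2 fish. By Pearson's r alone, eif1axb with zgc:112982 (r = 0.847, exact adjusted p 0.0425) and RPIA with gfra4a (r = 0.911, exact adjusted p 0.0492) also passed, and by Spearman's rho alone cox17 with SAP18 (rho = 0.857, exact adjusted p 0.0393). A high r did not always mean low in the same testes. Both genes were on the same side of 20 in 8 testes for OSTF1 with ME2 and in 7 for cox17 with SAP18. The number was 6 for eif1axb with si:dkey-226l10.6 and with zgc:112982. It was 4 for RPIA with gfra4a, where RPIA was at least 52.1 in every testis. The highest testis of si:dkey-226l10.6 was at 53.5. Without the 2 farthest fish r was still over 0.5 in 6 of the 11 pairs. In ska3 with SAP18 it was −0.033 without them, against 0.607 over all 8 testes, so that relation rests on those fish.

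The run of cox17, ska3 and SAP18 showed the shared pattern in the ovaries most plainly. All 3 genes were lowest in replicate 2 at 50, 100 and 200 μg/L, where SAP18 had 24.1, 14.3 and 9.31 normalized counts, and were high in every other ovary, at 679.7 or more for SAP18. The gene hcn5, which lies between cox17 and ska3 in that order, was below 1 in all ovaries. In the testes the run was less even. ska3 had 82.9 and 544 normalized counts at 0, 347 and 212 at 50, 525 and 296 at 100, and 147 and 109 at 200 μg/L. cox17 had 32.1 and 215 normalized counts at 0, 159 and 26.8 at 50, 47 and 75.9 at 100, and 89.7 and 4.26 at 200 μg/L. No testis was low for ska3, and 1 was for cox17, 200 μg/L EM-male replicate 2.

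The run of zgc:112982, eif1axb and si:dkey-226l10.6 was low in 3 ovaries. zgc:112982 had 261 and 6.8 normalized counts at 0, 22.2 and 600.4 at 50, 738 and 242 at 100, and 15.8 and 653 at 200 μg/L. si:dkey-226l10.6 had 143 and 0.85 normalized counts at 0, 2.12 and 405 at 50, 515 and 60.9 at 100, and 1.58 and 434 at 200 μg/L. Control female replicate 2, 50 μg/L replicate 1 and 200 μg/L replicate 1 were lowest in all 3 genes, zgc:112982 just above 20 in the second of them.

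OSTF1, which codes for an SH3 domain protein, and ME2 lie side by side. OSTF1 had 43 and 101 normalized counts at 0, 116 and 224 at 50, 4.19 and 1.87 at 100, and 205 and 225 at 200 μg/L. In the testes ME2 followed its neighbour. ME2 had 144 and 245 normalized counts at 0, 34.3 and 308 at 50, 6.83 and 3.25 at 100, and 291 and 31.9 at 200 μg/L in the testes. Both genes were low in both ovaries and both testes of the fish at 100 μg/L, and OSTF1 was also close to 20 in 1 testis at 50 μg/L. For neither gene was EM against control or the slope called by edgeR in females or males.

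**Figure D4:**
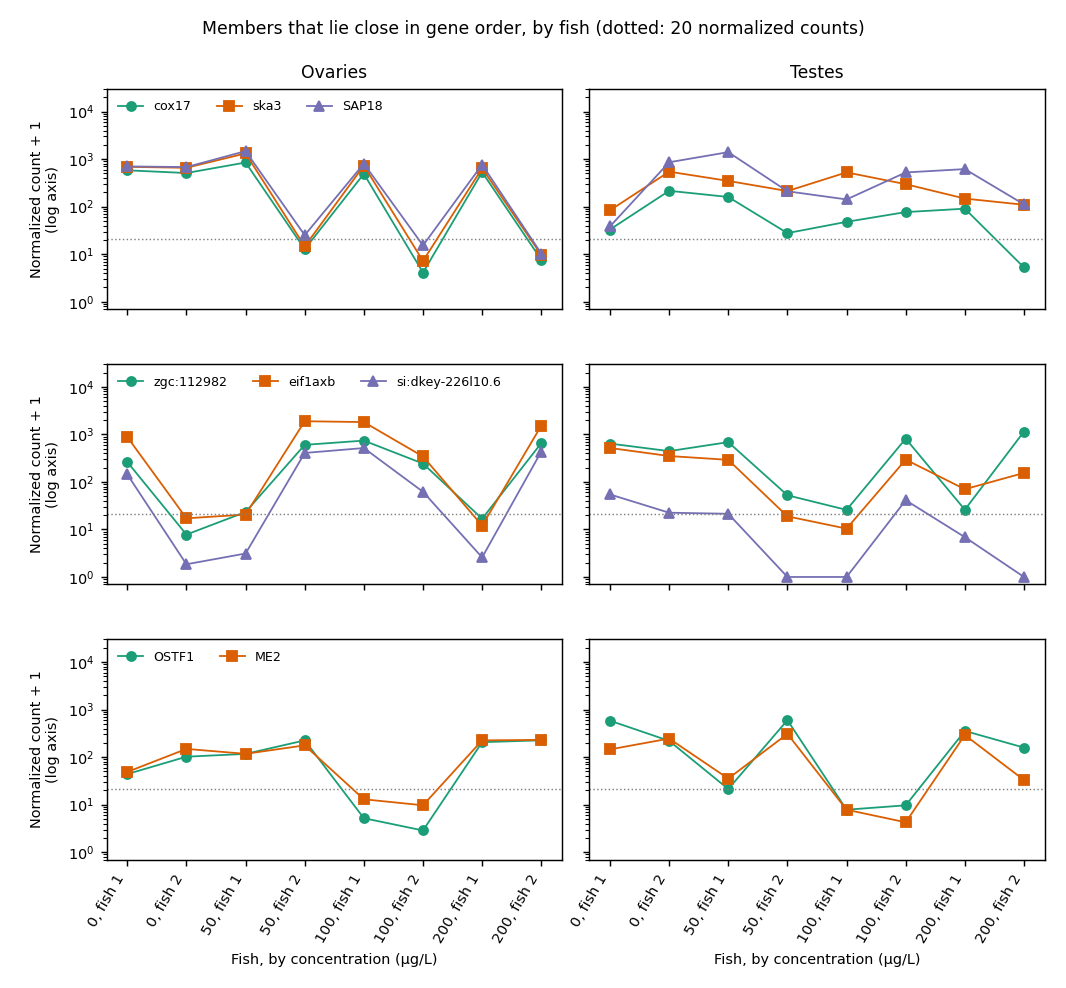
Normalized count + 1 on a log axis for 3 runs of members that lie close in gene order (1 run per row, 1 line per gene), by fish in order of EM concentration (μg/L), in ovaries (left) and testes (right), with 20 normalized counts dotted. The genes of a run are lowest in the same ovaries, as OSTF1 and ME2 are at 100 μg/L, and these 2 are also lowest together in the testes at 100 μg/L.

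Genes that are not members but lie within or beside a run shared its pattern in part (chosen after their values were seen). Between RPIA, an enzyme of the pentose phosphate pathway, and gfra4a, a co-receptor for neurotrophic factors, lie EIF2AK3, a kinase of the unfolded protein response (21.2 to 1432, r = 0.990 to RPIA in the ovaries), and ATRN (40.9 to 406, r = 0.966 to RPIA). The 2 genes after gfra4a had no low ovary. The gene ap5s1 stayed between 209 and 316 normalized counts, with an inverse r of −0.851 to RPIA in the ovaries. The other, cdc25b, a phosphatase of the cell cycle, stayed between 2124 and 3044, with r = 0.106 to RPIA. ZBTB17, near clcnk, likewise stayed between 438 and 655. Within other runs, some genes stayed even. TBPL1, between LCA5 and sgk1, lay between 325 and 497, with r = 0.675 to LCA5 in the ovaries. FAM131C, between clcnk and SZRD1, lay between 36.3 and 72.7, with r = −0.141 to clcnk. Some genes beyond a run followed it in the ovaries. ATP13A2, after SZRD1, had 47.0 to 460 (r = 0.932 to clcnk), and HBS1L, beyond sgk1, had 19.9 to 387 (r = 0.948 to LCA5).

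The remaining runs were clcnk, a chloride channel gene, with SZRD1 (6 genes between) and LCA5 with the kinase gene sgk1 (7 genes between). Their r was 0.976 and 0.979 in the ovaries, against 0.424 and −0.102 in the testes, where neither passed the exact permutation test (adjusted p 0.323 and 0.802). PRPF38A, a splicing factor gene, is next to orc1, which was set aside, with r = 0.974 in the ovaries and 0.811 in the testes. With nasp, 1 gene further, PRPF38A had r = 0.986 and 0.781.

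One chromosome held 8 members (clcnk, DPM1, DTX3, NR4A1, SZRD1, LCA5, sgk1 and GPR157). All 8 were low in control female replicate 1, against 10 of the other 53 placed members. All 8 were also low in 50 μg/L EM-female replicate 2, where 34 of all 75 members, these 8 among them, were low. This chromosome was taken because it held the most members, and ovary values chose the members, so these counts are a description. Control female replicate 1 is the ovary with the high sum of liver genes given above, while that sum was at most 607 in every EM-female. The part of those values in this result was not tested. NR4A1, an orphan nuclear receptor gene, and SZRD1 show the level of these members by fish. NR4A1 had 5.58 and 467 normalized counts at 0, 116 and 9.28 at 50, 113 and 205 at 100, and 174 and 426 at 200 μg/L. SZRD1 had 15.1 and 418 normalized counts at 0, 507 and 14.9 at 50, 29.4 and 387 at 100, and 312 and 648 at 200 μg/L. Both were low in control female replicate 1 and 50 μg/L EM-female replicate 2, and 100 μg/L EM-female replicate 1 was just above the limit for SZRD1.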

How the data were processed

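RNA of 16 gonads was sequenced from stranded poly(A)+ libraries. The authors mapped reads with HISAT2 2.0.5 to GRCz11, took out PCR duplicates (SAMtools 1.5), and used HTSeq 0.9.1 to count reverse-strand reads per gene (tool names also in the submitters' processing notes). The first deposited file holds these raw counts, without normalization. Its 5 HTSeq tallies (50.8% to 66.3% of reads) were left out, and 1 cell with 2 values was read as 2. The second deposited file holds normalized signal, the counts divided by a size factor per library (0.374 to 1.89).

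Members and gene lists were chosen with earlier results of these data known. Low was at most 20 normalized counts. The raw counts of 8 females, or of 8 males, were fitted with edgeR 4.0.16 in R 4.3.3 (TMM, filterByExpr, robust quasi-likelihood F-test, two-sided), as EM against control and as a slope over concentration, with Benjamini-Hochberg adjustment over all tested genes and a threshold of 0.05. DESeq2 1.42.0, its size factors, no filter, steps of concentration, a replicate block, other limits and each fish left out in turn were the alternatives, and those of the close pairs were added after the data were seen. Scripts were tested on simulated data. Correlations used log2(normalized count + 1), and testis pairs were tested by exact permutation over all orders of the fish. Symbols matched 25739 of 28353 genes. RefSeq's GRCz12tu table gave only gene order, since the files use GRCz11.

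The text names the first 20 members with a descriptive symbol, the first 5 of any name, members called, neighbours with at most 1 gene between them, members low in exactly all fish of 1 concentration, and the first 5 that met the limits in the testes. The values of 2 members by name are not reported here. Other names were chosen after their values were seen. The 0 μg/L fish, labelled control, were taken as the solvent control. Intervals cover counting error only. Each group was 2 fish of a single tank. For EM against control, the p-values of the fits rest on the spread of single fish, pooled over EM concentrations and tanks. For the slope they rest on the distance of single fish from the fitted line, so differences between tanks enter both. The exact permutation of testis pairs moved fish across tanks and concentrations, and so took tank mates as independent of each other.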

Additional observations from a re-analysis of the deposited data

Results flagged for a closer look

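The 31 members named by rule were examined for a fish far from the other 5, in the 6 EM-females and in the 6 EM-males. In the ovaries, whose values chose the members, 1 such fish was found and is given as a description. LSM12 had 714 normalized counts in 200 μg/L EM-female replicate 1, against 256 in the next fish. In the testes, 4 such fish were found in the 31 sets. The criterion passes about 1 in 20 sets of normally distributed values. These counts were not on a log scale and some sets were mostly at 0, so the 4 fish cannot be set against that rate. There parp9 had 961 normalized counts in 200 μg/L EM-male replicate 2, against 231 in the next. DDX28 had 34.3 in 50 μg/L EM-male replicate 1, with the other 5 EM-males at 0. PTGES3 had 111 in 50 μg/L EM-male replicate 1, against 12.8 in the next. The membrane protein gene tmem51a had 114 in 100 μg/L EM-male replicate 1, against 42.6 in the next. The values of parp9 and tmem51a exceeded both control males, and those of DDX28 and PTGES3 did not.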

How the results depend on the processing

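The number of genes that met the limits moved with the limits themselves: 76 as reported, 41 with low set at 10 or less, 135 with low set at 40 or less, 180 with a median of at least 50 and 33 with a median of at least 200. Leaving out each female in turn gave 53 to 67 genes. With low set at 10 or less, 5 members met the limits in the testes in place of 9, and leaving out each male gave 6 to 11. DESeq2 called 3 members in place of 1 between EM-females and control females, and 2 in place of 0 for the slope in females. Leaving out each female in turn, 0 to 1 members were called between EM-females and control females, 0 being the count without control female replicate 2. In the close pairs, Spearman's rho gave a median of 0.905 in the ovaries, beside 0.990 by Pearson's r. Leaving out each fish gave 0.988 to 0.994 in the ovaries and 0.685 to 0.870 in the testes. With counts scaled by TMM, the ranking ratio of plxnb2a.2 was 1127 and that of parp9 was 486.8. All other comparisons run (94 values of the main results and 40 of single genes) kept their direction and side of the threshold, or stayed within the limits set for a count or value. With the replicate number as a block, 1 member was called between EM-females and control females and 0 in the other 3 fits. Deviations of same-numbered fish correlated between −0.025 and 0.014 in females. In males they correlated between 0.153 and 0.323 among the EM groups and between −0.314 and −0.216 for control males with each EM group. Not every pair was over 0.1, so the numbers were not taken as pairing the fish. This limit would miss a division of the males that was numbered the other way in the control males, which was not tested. With the replicate number as a block, the median r of the close pairs was 0.985 in the ovaries and 0.793 in the testes, and 4 testis pairs in place of 5 passed the exact permutation within number (576 orders). OSTF1 with ME2 and si:dkey-226l10.6 with eif1axb passed (both adjusted p 0.0286), and RPIA with gfra4a and eif1axb with zgc:112982 did not (both 0.0732). By Pearson's r, cox17 with SAP18 passed the exact permutation with the block (adjusted p 0.0286) but not without it (adjusted p 0.0577).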
